A study of Mus with 17 samples.

Results

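The comparison described here is between abdominal aortas of mice infused with angiotensin II and of mice given saline. It rests on 11 of the 17 samples of the study, taken by their titles: 6 samples titled AngII and 5 titled Ctrl, which are called Control. All were wild-type (WT) C57BL/6 mice, an inbred laboratory strain. AngII mice received angiotensin II at 500 ng/kg/min for 42 days and Control mice received saline for 42 days, and the labels list double distilled water as a second treatment of both groups. In the other 6 samples the infused mice also received neferine, 1 mg/kg/day, and these samples appear below only where their values are set beside those of the 2 groups. The sources used here do not give the age or sex of the mice, or how many mice a sample stands for. The p-values therefore measure the spread between these samples, which may be technical in part.

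Angiotensin II is a peptide hormone that constricts arteries through a receptor on smooth muscle cells, and a lasting infusion raises blood pressure. In the aorta such infusion is known for thickening of the muscular wall, deposition of collagen and entry of immune cells. The comparison addresses which transcripts of the aorta differ after the infusion. The files identify each transcript by an Ensembl identifier or by an identifier of an assembled transcript (MERGE, a locus number and an isoform number), and they pair neither with a gene. The markers of the aorta and of neighboring tissues could therefore not be checked, and no pathway could be followed. Isoforms of 1 locus are alternative transcripts that usually have exons in common, so that many reads fit more than one of them.

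The 11 files listed 43752 transcripts, 30581 from Ensembl and 13171 assembled, each with an abundance signal whose unit is not named. In each of them the mean of Control or that of AngII reached 0.5. Tests covered the 25361 transcripts (58% of those listed) that reached a value of 1 in 5 or more of the 11 libraries, 19037 from Ensembl and 6324 assembled. Values were compared as log2(value + 1), and a call means that limma's p, adjusted by Benjamini-Hochberg over all tested transcripts, was under 0.05. A transcript present in Control alone passes the minimum only if it reaches 1 in all 5 Control libraries. Among all 43752 transcripts, with no such minimum, limma called 8 in place of 7, and these included all 7.

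The libraries had similar estimated depths relative to AngII replicate 5, from 0.98 to 1.09, as read from steps between low values. The estimate is rough, since the most common step held 25.8% to 33.8% of 180 to 409 low values per library. The number of reads is unknown. AngII replicate 6 stood apart: its Spearman rho with each other library had a median of 0.463, and this median was 0.61 to 0.655 in the other 10 libraries. It was at 183 on the first principal component (22.4% of the variance), and the others were between -35.9 and 6.28. In AngII replicate 2 the 10 highest transcripts held 30.9% of the signal, against 10.5% to 21.5% in the other 10 libraries. On the third component (10.5% of the variance) the AngII libraries other than replicate 2, which was at 79.1, were between -52.7 and -12.2, below every Control library (-5.36 to 50.8). Each of 4 measures per library was compared between the groups by a two-sided exact permutation test, and in none was the difference larger than the spread. The share of transcripts listed at 0 was 8.76% ± 1.67 (SD, n = 5) for Control and 8.77% ± 4.8 (SD, n = 6) for AngII (exact permutation p = 1). The share of signal in the 10 highest transcripts was 15.7% ± 3.34 (SD, n = 5) and 15.9% ± 7.52 (SD, n = 6) (exact permutation p = 0.978). Of the signal, assembled transcripts held 12.4% ± 0.612 (SD, n = 5) for Control and 12% ± 1.79 (SD, n = 6) for AngII (exact permutation p = 0.662). The median rho was 0.632 ± 0.0177 (SD, n = 5) and 0.614 ± 0.0747 (SD, n = 6) (exact permutation p = 0.924). The adjusted p over these 4 measures was 1 for each.

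**Figure D1:**
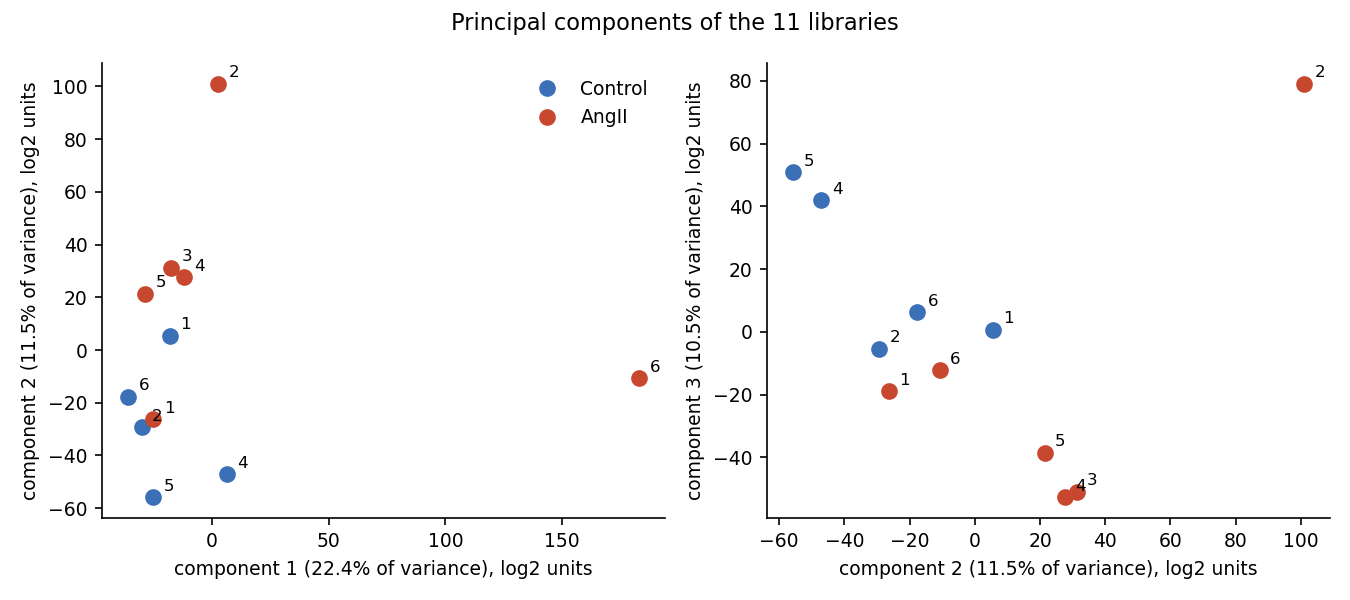
Positions of the 11 libraries on the first 3 principal components of log2(value + 1) of the tested transcripts, with replicate numbers, Control in blue and AngII in red. AngII replicate 6 lies at 183 on component 1 and AngII replicate 2 at 79.1 on component 3, and the other 5 AngII libraries lie below all Control libraries on component 3.

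The clearest difference between AngII and Control was an exchange of isoforms at a pair of assembled loci. At MERGE.36888 and at MERGE.13075, one isoform fell from most of the mean signal of the locus to near 0, another rose from 0 or near it, and the summed signal of the locus did not pass the test. These 4 transcripts were among only 7 called over all 25361 tested (limma, 0.0276% of them), with 2 called higher and 5 lower in AngII, 0.00789% and 0.0197%. The 2 called higher were MERGE.36888.4 and MERGE.13075.10, and their partners MERGE.36888.5 and MERGE.13075.8 had the smallest p of those called lower. What these loci encode is not known here.

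MERGE.36888.5 had values of 29.6, 16.7, 21.3, 11.5 and 15.8 in Control replicates 1, 2, 4, 5 and 6. In AngII it was listed at 0 in replicates 1, 2, 3 and 6, and was at 0.0154 and 0.0151 in replicates 4 and 5. Every Control library was high and every AngII library was at or near 0. The difference on the log2(value + 1) scale was -4.25 ± 0.241 (SE; limma, adjusted p = 2.3e-05). MERGE.36888.4 was listed at 0 in each of the 5 Control libraries. In AngII replicates 1 to 6 it had values of 17.1, 15.3, 23.4, 4.78, 16.6 and 15.6 (limma, adjusted p = 0.00063). No fold is given against values listed at 0. These are the only isoforms listed for the locus, and every library held one of them and next to nothing of the other.

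Summed over both isoforms, MERGE.36888 had a signal of 19 ± 6.86 (SD, n = 5) under saline and 15.5 ± 6 (SD, n = 6) under AngII. The difference of the sums on the log2(value + 1) scale was -0.33, with a 95% interval of -1.14 to 0.47 that holds both no change and a fall of more than 2-fold (limma over 4727 loci, adjusted p = 0.88). The share of MERGE.36888.4 in the locus was at 0% in all Control libraries and 99.9% ± 0.129 (SD, n = 6) in AngII.

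**Figure D2:**
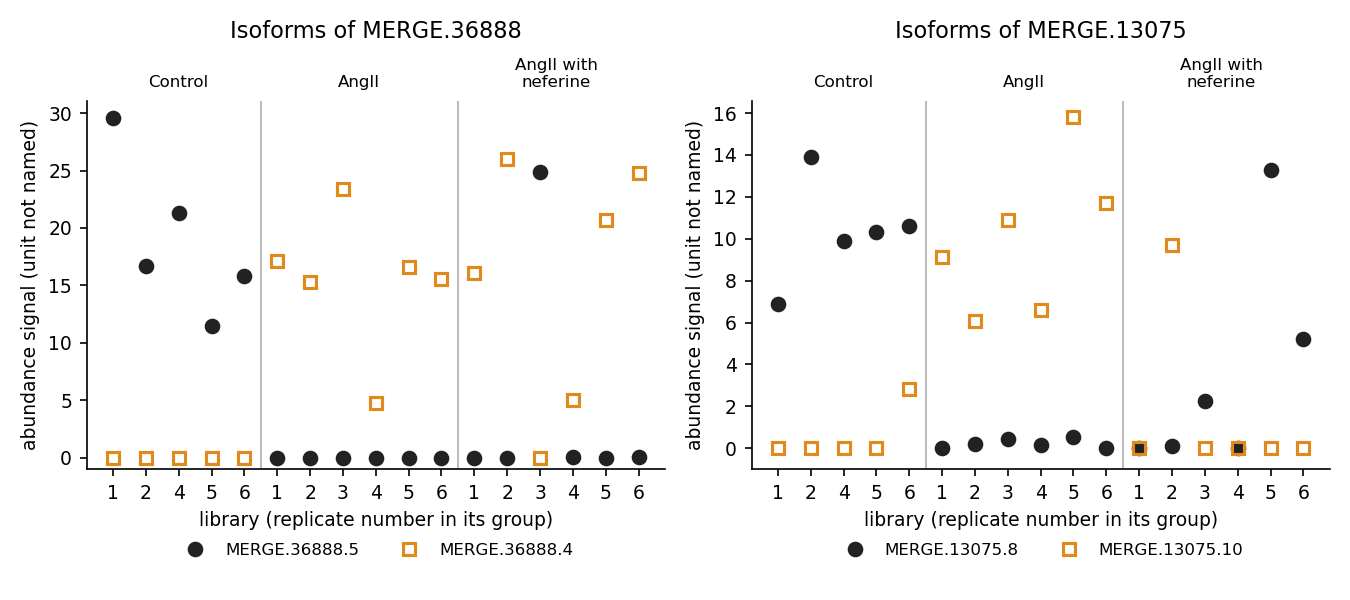
Abundance signal (unit not named) of the exchanged isoforms of MERGE.36888 and MERGE.13075 in each library, by group and replicate number, with the neferine libraries for reference. Filled circles lie above 6 in all Control libraries and under 1 in all AngII libraries, and open squares lie above 4 in all AngII libraries and under 3 in all Control libraries.

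MERGE.13075.8 had values of 6.88, 13.9, 9.91, 10.3 and 10.6 in Control replicates 1, 2, 4, 5 and 6. In AngII it was listed at 0 in replicates 1 and 6, and had 0.22, 0.427, 0.164 and 0.539 in replicates 2 to 5. The groups did not overlap, and the difference on the log2(value + 1) scale was -3.2 ± 0.229 (SE; limma, adjusted p = 0.000154). MERGE.13075.10 was listed at 0 in Control replicates 1, 2, 4 and 5 and had 2.84 in Control replicate 6. In AngII replicates 1 to 6 its values were 9.11, 6.09, 10.9, 6.62, 15.8 and 11.7, all above that of Control replicate 6. Its difference was 3.01 ± 0.399 (SE; limma, adjusted p = 0.0318). This call is weak, since it was lost when any 1 library other than Control replicate 6 was left out (adjusted p up to 0.139, and 0.00135 without Control replicate 6).

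A further isoform of MERGE.13075 is listed and was not tested because of its low values, which were 0.414 to 9.78 in Control and 0.22 to 0.686 in AngII. It was at 9.78 and 6.62 in Control replicates 1 and 4 and under 0.6 in the other Control libraries. The share of MERGE.13075.8 in the locus was 73.7% ± 23.4 (SD, n = 5) under saline and 2.05% ± 1.64 (SD, n = 6) under AngII. MERGE.13075.10 held 4.11% ± 9.2 (SD, n = 5) and 93.6% ± 3.05 (SD, n = 6). The sum over the 3 listed isoforms was 14.5 ± 2.37 (SD, n = 5) under saline and 10.7 ± 3.85 (SD, n = 6) under AngII, and the difference of -0.45 on the log2(value + 1) scale did not pass (95% interval -1.03 to 0.13; limma, adjusted p = 0.811).

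Whether isoforms of 1 locus moved differently was tested directly for 2992 assembled transcripts of 1132 loci with 2 or more tested isoforms. limma's diffSplice called 5 of them, 0.167%, and 187 (6.25%) had an unadjusted p under 0.05. The 4 exchanged isoforms were among the 5 called, and the fifth was an isoform of another locus. In simulated data the share of false calls of diffSplice was well over the threshold. A second test, chosen after seeing the data, compared each transcript with the sum of the other isoforms of its locus. It gave an unadjusted p under 0.05 for 153 (5.11%) and called exactly the 4 exchanged isoforms (0.134%), with an adjusted p of 4.99e-07 for both isoforms of MERGE.36888, 3.96e-05 for MERGE.13075.10 and 0.00742 for MERGE.13075.8 (limma). All 4 stayed called in this test when any 1 of the 11 libraries was left out, with adjusted p of at most 0.0316. The fifth transcript was not called by it. The same minimum chose the transcripts of both tests, and neither was run without that minimum. MERGE.36888.4 passed it only through AngII libraries, and MERGE.36888.5 and MERGE.13075.8 only through Control libraries. The 2 isoforms of MERGE.36888 mirror each other in both tests, as do the 2 tested isoforms of MERGE.13075 in diffSplice. The calls of such a pair are therefore 1 result and not separate ones.

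How the reads of isoforms with shared exons were divided is not given in the sources used here, and its part in the exchanges was not tested. How often isoforms exchange between libraries in general was therefore counted. Among 10906 pairs of assembled isoforms of 1 locus, 23 had, in every one of the 11 libraries, one member at 1 or more and the other under 0.5, with each member being the high one in at least 1 library. In 12 of the 23 a single library differed from the other 10, an AngII library in 9 of them and a Control library in 3. Another 10 pairs had at least 2 libraries in each state without separating the groups. Of these, 7 were mixed within both groups. In 2 others all 6 AngII libraries shared a state with 3 Control libraries while 2 Control libraries had the other. In the remaining 1 all Control libraries shared a state with 4 AngII libraries while 2 AngII libraries had the other. The pair of MERGE.36888 was the only one that separated the groups. The pair of MERGE.13075 is not among the 23 because both members exceeded 0.5 in Control replicate 6 and in AngII replicate 5. Of the 50 loci with an assembled transcript whose groups did not overlap, only MERGE.36888 and MERGE.13075 had such transcripts in both directions.

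The neferine libraries, from mice that also received angiotensin II, form a separate set of files, and identifiers of both sets were taken to name the same transcripts. MERGE.36888.4 had 16.1, 26, 5, 20.7 and 24.8 in neferine replicates 1, 2, 4, 5 and 6, where MERGE.36888.5 was at most 0.0499, as in AngII. In neferine replicate 3 the values were 0 and 24.9, as in Control. MERGE.13075.10 was at 9.71 in neferine replicate 2 and at most 0.0165 in the other 5, so that 1 of these 6 libraries had the level of AngII. MERGE.13075.8 was at 13.3, 5.22 and 2.26 in neferine replicates 5, 6 and 3 and at most 0.126 in the others. In 3 of them, replicates 1, 3 and 4, most of the signal of the locus was in the isoform that was not tested. These values were not tested against either group.

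**Figure D3:**
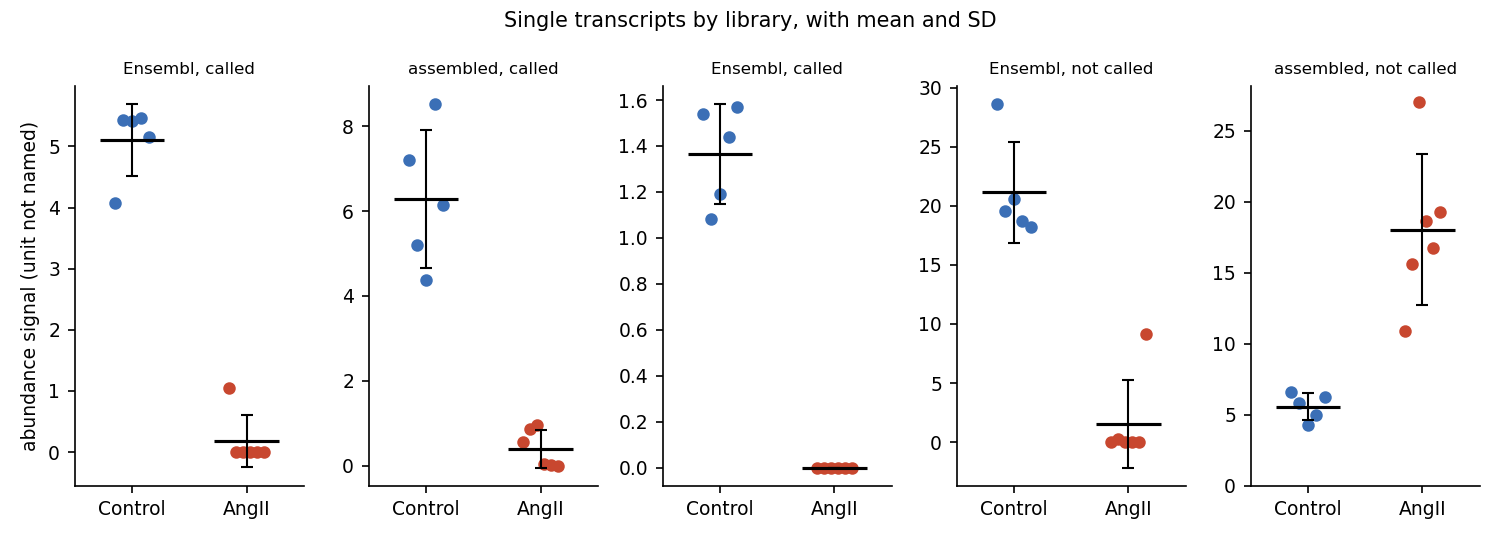
Abundance signal (unit not named) by library in Control (blue, 5 points) and AngII (red, 6 points) for the 3 other called transcripts and the 2 with the next smallest p, with the mean and SD as lines. The 3 called transcripts are at 1.08 or more in all Control libraries and at 1.05 or less in all AngII libraries, and the transcript that was higher in AngII is at 10.9 or more in all AngII libraries.

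The other 3 called transcripts were all lower in AngII, with no overlap between the groups. With 0.1 added to the values in place of 1, none of the 3 was called (limma, adjusted p of 0.087 to 0.397). One, from Ensembl, had 4.08, 5.43, 5.41, 5.46 and 5.15 in Control and was listed at 0 in AngII replicates 2 to 6, with 1.05 in AngII replicate 1 (limma, adjusted p = 0.00169). It was at 3.55 to 6.57 in 5 neferine libraries and listed at 0 in neferine replicate 5. A second one, also from Ensembl, had 1.54, 1.08, 1.19, 1.44 and 1.57 in Control and was listed at 0 in all 6 AngII libraries (limma, adjusted p = 0.0143). It was the only transcript of the 43752 that had at least 1 in every Control library and was listed at 0 in every AngII library, and MERGE.36888.4 was the only one with the reverse. The call of this second one was lost without Control replicate 1, 5 or 6 or AngII replicate 3 or 4 (limma, adjusted p of 0.052 to 0.0916). Its values in Control lay just above the minimum of 1, and its call held in 12 of 23 settings.

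The last of the 3 was an assembled transcript of a locus with 4 listed isoforms. It had 7.2, 5.19, 4.38, 8.52 and 6.15 in Control and 0.553, 0.856, 0.958, 0.0328, 0.0138 and 0 in AngII (limma, adjusted p = 0.00736). Another isoform of the locus was at 0 to 7.36 in Control and at 0.275 to 10.4 in AngII, so its groups overlapped. Its whole locus summed to 9.79 ± 3.63 (SD, n = 5) under saline and 9.33 ± 3.98 (SD, n = 6) under AngII (limma, adjusted p = 0.975). The test against the other isoforms of the locus did not pass (limma, adjusted p = 0.0573).

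Just outside the threshold were 1 transcript lower and 1 higher in AngII, both with an adjusted p of 0.0721 (limma). The lower one, from Ensembl, was at 18.2 to 28.6 in Control and at most 0.227 in 5 AngII libraries, with 9.16 in AngII replicate 6. It was called without that library (limma, adjusted p = 6.18e-06). With all 11 libraries it was called under library weights, equal sums and upper quartile scaling (limma, adjusted p of 0.000183, 0.0286 and 0.0321). In 19 of 24 alternative settings it stayed uncalled. In the neferine libraries it was at most 0.357 in 5 and at 11 in neferine replicate 6. The higher one is the only listed isoform of its locus. It had 6.59, 5.79, 4.28, 4.96 and 6.24 in Control and 10.9, 15.6, 27, 18.6, 16.7 and 19.3 in AngII, with no overlap and a difference of 1.5 ± 0.224 (SE) on the log2(value + 1) scale. It was called without AngII replicate 1 and with library weights (limma, adjusted p of 0.0269 and 0.0351), and stayed uncalled in 22 of 24 settings. In the fit over loci its adjusted p was 0.306 (limma). In the neferine libraries it was at 4.85 to 10.

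The next 3 transcripts by p were all from Ensembl, and none of them passed. One was at 4.51 to 14.4 in Control and at 23.1 to 66.4 in AngII, with no overlap (limma, adjusted p = 0.145). Another was at 4.63 to 11.1 in Control and at 0.768 to 2.19 in AngII (limma, adjusted p = 0.145). The third was at 59.1 to 86.2 in Control and at 13 to 38.4 in AngII (limma, adjusted p = 0.193). In all of these the groups were apart while the adjusted p was over the threshold. The tissue was measured in bulk, so a lower signal from fewer cells of a type and from less RNA per cell cannot be told apart.

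Summed over isoforms, no assembled locus was called. Of 4727 assembled loci tested, limma called 0, and 303 (6.41%) had an unadjusted p under 0.05. The exact rank sum test called 0 loci, but its smallest possible p of 0.00433 leaves little room after adjustment. By that test, 250 of the 4727 had an unadjusted p under 0.05. In 41 loci (0.867%) every library of one group was above every library of the other. Ensembl transcripts could not be summed, since the files do not say which belong to 1 gene.

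**Figure D4:**
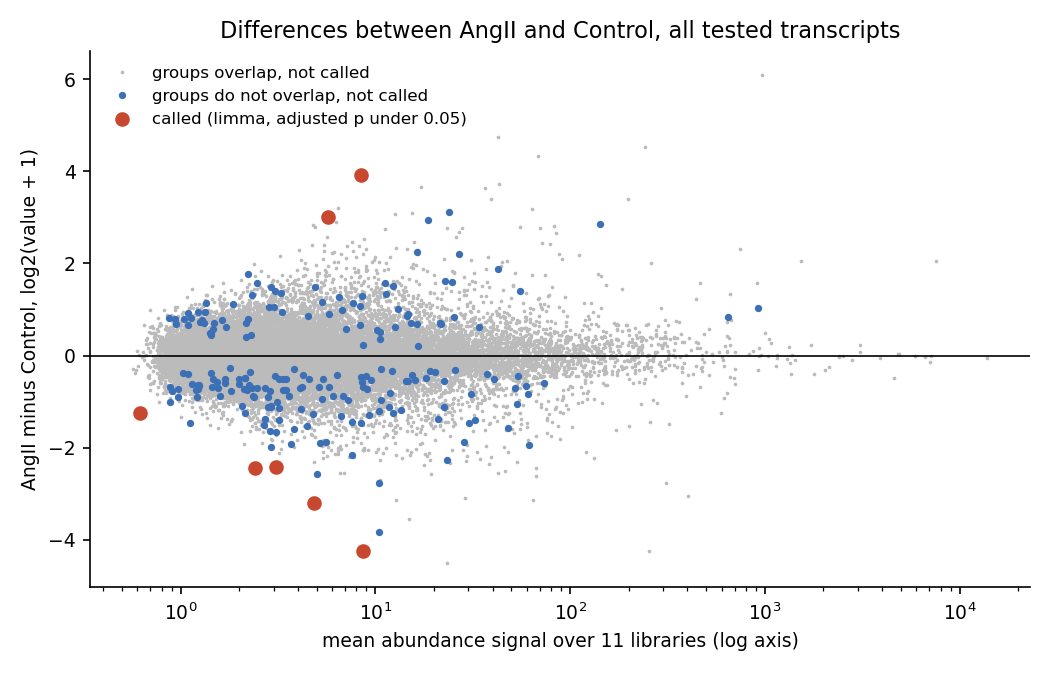
Difference between AngII and Control on the log2(value + 1) scale for all 25361 tested transcripts against their mean abundance signal over the 11 libraries (log axis, unit not named). The 7 called transcripts (red) have a mean under 10, and transcripts whose groups did not overlap (blue) lie mostly between -2 and 2.

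Beyond these 7, differences between the groups did not pass the test. Most of those without overlap were under 2-fold on the value + 1 scale. An unadjusted p under 0.05 was reached by 1565 transcripts (6.17%), of which 680 (2.68%) were higher and 885 (3.49%) lower in AngII. There was no overlap between the groups in 210 transcripts (0.828%), with 76 higher (0.3%) and 134 lower (0.528%). The higher ones had a median ratio of 1.88 on the value + 1 scale, and 32 of them exceeded 2-fold. The lower ones had a median ratio of 1.68, and 48 exceeded 2-fold. Adding 1 shrinks the ratios of low values. The median of the mean signal was 5.75 for the higher ones and 3.96 for the lower ones. Ensembl and assembled transcripts had similar shares without overlap, at 0.825% and 0.838%.

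The balance of directions depended on the scaling of the libraries. With the values as deposited, 36.2% of the transcripts without overlap were higher in AngII. The share was 46.5% after scaling to equal upper quartiles (101 higher, 116 lower) and 23.5% after scaling to equal sums (44 higher, 143 lower). The median difference over all tested transcripts was -0.0357, -0.0229 and -0.106 under these settings on the log2(value + 1) scale. Under each of the 3, more transcripts without overlap were lower than higher. A transcript at 0 in any AngII library cannot be higher without overlap, and one at 0 in any Control library cannot be lower. AngII replicate 6 had 18.3% of transcripts listed at 0, and these counts were not made without it. AngII replicates 2 and 6 had the largest totals (522609 and 542841), which scaling to equal sums lowers most. At an unadjusted p under 0.05 the order turned with upper quartiles, to 819 higher and 799 lower.

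Some of the lower transcripts are not listed in the neferine files. These 4138 transcripts, 9.46% of all listed, include 3745 with an AngII mean under 0.5, so that their direction is set by how the files were made. Of these, 89 passed the minimum for testing and 0 were called (limma). At an unadjusted limma p under 0.05, 13 of the 89 were lower and 0 higher in AngII (14.6%, beside 6.17% of all tested transcripts). The exact rank sum test made no call among all tested transcripts, and its smallest possible p of 0.00433 leaves little room for one.

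No abundant transcript was called. None of the 497 transcripts with a mean of at least 100 was called. Of these, 30 had an unadjusted limma p under 0.05, beside 1565 of all 25361 tested. Groups without overlap were found in 3 of them (0.604%), beside 0.828% of all tested. For 55.3% of these 497 the 95% interval of the difference lay within a 2-fold change in either direction. Between 20 and 100 this held for 53.1% of 2420 transcripts, between 5 and 20 for 40.4% of 6710, and under 5 for 42.4% of 15734. In all, 43.2% of the tested transcripts had an interval that left out a 2-fold change on the log2(value + 1) scale. For the others a change of 2-fold or more on that scale was not detectable or not excluded by these libraries. Adding 1 shrinks changes of low values, so the shares of low and high transcripts do not mean the same. Under a mean of 5 such an interval can still hold a change of 2-fold or more in the signal itself.

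The AngII libraries varied more than the Control libraries, and AngII replicate 6 moved with that. The median SD of log2(value + 1) was 0.475 in Control and 0.619 in AngII, and 0.478 in AngII without replicate 6. By abundance the picture differed. Under a mean of 5 the median SD was 0.524 in Control and 0.478 in AngII without replicate 6, whereas it was 0.305 and 0.444 between 20 and 100, and 0.318 and 0.533 from 100 on. The median spread of abundant transcripts was thus larger in AngII also without that library. AngII replicate 2, with 30.9% of its signal in its 10 highest transcripts, was still included, and its part in this was not tested. The SD was larger in AngII for 64.5% of tested transcripts, and for 50.5% without AngII replicate 6. Without it, the interval lay within a 2-fold change on the log2(value + 1) scale for 49% of transcripts. Limma then called 10 transcripts, 4 higher and 6 lower, among them 6 of the 7.

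**Figure D5:**
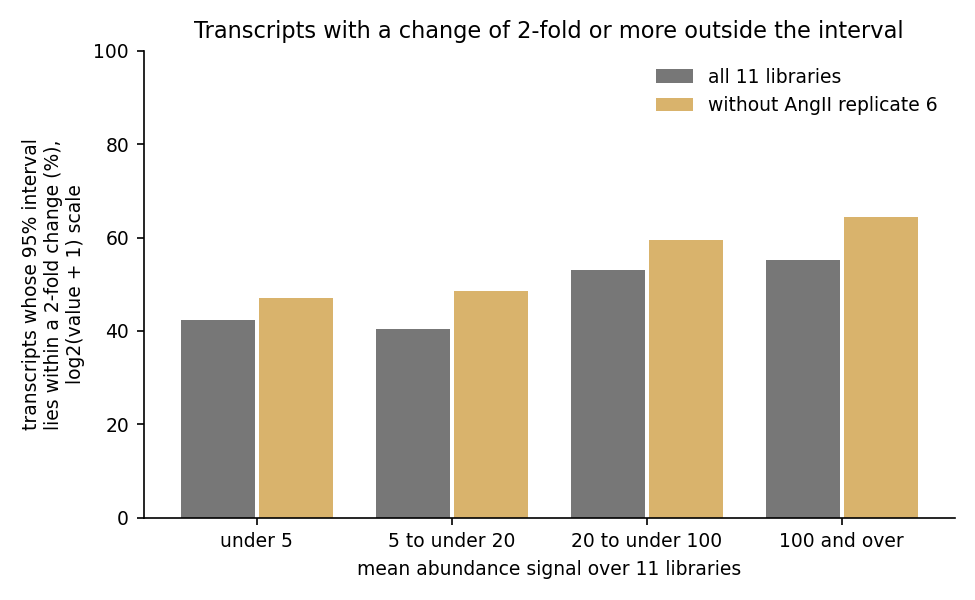
Share of tested transcripts whose 95% interval of the AngII minus Control difference lies within a 2-fold change on the log2(value + 1) scale, by mean abundance signal (unit not named), with all 11 libraries (grey) and without AngII replicate 6 (tan). The shares are 40.4% to 55.3% with all libraries and 47% to 64.4% without AngII replicate 6.

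The count of 7 rests on a fit of these 2 groups alone. With all 17 libraries in 1 fit, 0 transcripts were called. The exact rank sum test also called 0, and its smallest possible p of 0.00433 leaves little room after adjustment. Of the 25361 transcripts it tested, 1310 had an unadjusted rank sum p under 0.05.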

How the data were processed

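RNA of abdominal aorta was depleted of ribosomal RNA before library preparation, per the labels' protocols. The deposited files hold 1 abundance signal per transcript and library. The sources used here give no aligner, assembler, quantification tool, genome build or normalization of the authors, and the submitters' processing notes name limma without version or role. Column totals were 392615 to 542841 in the 11 libraries. At most 0.0457% of transcripts had equal values above 0 in any pair of libraries, so none was a duplicate.

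R 4.3.3 and limma 3.58.1 were used on log2(value + 1), with trended, robust moderation and no covariate. The same fit was run on sums over assembled loci, and diffSplice on assembled isoforms. Its calls are read beside a limma test of each isoform against the rest of its locus. In the 1 set of simulated data the share of false calls was well over the threshold for diffSplice, and slightly over it for that test and for the transcript fit. The simulated noise was drawn independently for each transcript, which isoforms with shared reads need not follow, so these shares may differ in the real data. Depth steps were read from values under 0.05. Fits on fewer libraries kept the transcripts tested in all 11.

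The rule for naming took, with no gene symbols, at most 2 transcripts higher and 2 lower by smallest p with a mean of at least 1 in either group. The planned lists of pathway and cell type genes could not be applied. The comparison, its lists and tests were chosen with earlier results of these data known. Alternatives were other pseudocounts, minimums, scalings, moderation, library weights, all 17 libraries, a replicate block, an exact rank sum test and leaving libraries out.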

Additional observations from a re-analysis of the deposited data

Results flagged for a closer look

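A single library lay far outside its group in 8 of 28 sets of 5 or 6 values, and 3 of the 8 concern AngII replicate 6. Chance alone gives about 1 in 20 for a single set, but these sets share libraries and some are transcripts chosen by p, so the count cannot be read against that rate. Its share of transcripts listed at 0 was 18.3% and its median Spearman rho was 0.463. It also had 210 transcripts that reached 5 and exceeded all other libraries 10 times or more, and the other 10 libraries had 20 to 52 of these. The share of signal in the 10 highest transcripts was far from the rest of the group in AngII replicate 2, at 30.9%, and in Control replicate 5, at 21.5%. MERGE.13075.10 had 2.84 in Control replicate 6 and was listed at 0 in the other Control libraries. The called Ensembl transcript at about 5 in Control was lowest in Control replicate 1, at 4.08, and highest in AngII replicate 1, at 1.05.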

How the results depend on the processing

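The count of 7 called transcripts became 3 with a pseudocount of 0.1 and 3 with a minimum value of 5, 12 with library weights, and 0 with all 17 libraries in 1 fit, with the replicate block and with the exact rank sum test. Leaving out 1 library gave 5 to 12, and the 12, of which 9 were lower, came without AngII replicate 5. MERGE.36888.4, MERGE.36888.5 and MERGE.13075.8 each kept their direction in 24 settings and their call in 21, all but those 3 that called 0. Their groups did not overlap, so leaving out libraries or changing the pseudocount could not turn the direction. MERGE.13075.10 kept its call in 6 of 24. No locus was called except 1 with all 17 libraries, and 2 each without Control replicate 6 and without AngII replicate 5, so leaving out 1 library gave 0 to 2. The 5 calls of isoform use became 8 with the replicate block and 9 without AngII replicates 2 and 6 together. They were 4 to 9 without 1 library, with 8 without Control replicate 2 and 9 without Control replicate 6. The test against the other isoforms of the locus called 3 with the replicate block, in which MERGE.13075.8 did not pass (limma, adjusted p = 0.0969).

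No pairing of the samples by the replicate numbers in the titles was seen in these values, which cannot exclude a pairing of small effect. Deviations of same-numbered libraries from their group means correlated between -0.0918 and 0.00598, and no Control library correlated best with its own number. The block also leaves out AngII replicate 3 and takes up degrees of freedom; the same 10 libraries without the block, which is the fit without AngII replicate 3, gave 5 called transcripts.

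The library measures had no stable direction. Without AngII replicates 2 and 6 together the difference between AngII and Control was -2 percentage points for transcripts listed at 0, -3.32 for the 10 highest and 0.631 for assembled transcripts, and 0.0207 for the median rho (exact permutation, adjusted p of 0.127 to 0.214). Without 1 library these differences ranged from -1.9 to 0.653, from -2.81 to 1.66, from -0.758 to 0.165 and from -0.0297 to 0.0137. The causes of these shifts were not tested. The depth is unknown, so no counting error can be given.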
